A study of Homo sapiens with 12 samples.

Results

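The genes described here encode molecular chaperones of the cytosol and the mitochondria, measured in the established ovarian cancer cell line HEYA8, which is human. They were chosen by gene name alone: the HSP70 and HSP110 family (HSPA, HSPH), HSP90 with its mitochondrial relative TRAP1, HSP60 and HSP10 (HSPD1, HSPE1), the subunits of the chaperonin TRiC (TCP1, CCT), the small heat shock proteins (HSPB), the J-domain proteins (DNAJA, DNAJB, DNAJC), the BAG proteins, and the heat shock factors HSF1 and HSF2. Of 21207 genes in the table, 95 matched by symbol. Pseudogenes, antisense and divergent transcripts (16) and the endoplasmic reticulum (ER) chaperones HSPA5, DNAJC3, DNAJB9 and DNAJB11 (4) were left out, which left 75 protein-coding genes. Of these, 72 were tested, and DNAJB13, DNAJC12 and HSPB6 fell below the filter on low values. The name rule also kept J-domain proteins that are known as residents of the ER, among them DNAJB12, DNAJB14, DNAJC1, DNAJC10, DNAJC16 and DNAJC25, so not every gene in the group is cytosolic or mitochondrial.

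Cells received vehicle (0 µM) or colforsin daropate, a water-soluble derivative of forskolin that activates adenylyl cyclase and raises cyclic AMP, at 1, 5 or 10 µM, and were harvested after 48 h. Each of the 4 groups held 3 libraries. The design text calls them biological replicates, and the labels number them 6, 8 and 11 without saying what the number marks. All libraries came from 1 cell line, so the values describe that line.

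Chaperones bind unfolded stretches of other proteins and help them fold, assemble or be cleared. HSP70 works in cycles of ATP use, in which J-domain proteins deliver clients and start hydrolysis, and nucleotide exchange factors such as the BAG proteins and HSP110 release them. HSP90 acts later on kinases and receptors, TRiC folds actin and tubulin inside a closed chamber, and HSP60 with its lid HSP10 forms a similar chamber for proteins of the mitochondrial matrix. HSF1 switches on many of these genes when unfolded proteins build up, and HSPA1A, HSPA1B, DNAJB1, HSPH1 and BAG3 are among its textbook heat-inducible targets.

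Levels are the authors' variance-stabilised log2 values, which had a floor of 4.86 and were rounded to steps of 0.1 from 10 up. Gene reads per library, recovered from the low values, came to 23.9 megareads for vehicle library 6 and lay between 31.1 and 48.4 megareads elsewhere, with medians of 8.21 to 8.29 in all libraries. Of 18 markers listed for the cell type, 14 were in the table. MUC16 and CDH1, of the ovarian and epithelial carcinoma markers, and CD3E and HBB, of the blood markers, were absent from it. Among the markers of ovarian and epithelial carcinoma, PAX8 (12.5 to 13.6), KRT7 (11.5 to 13.7), KRT8 (13.1 to 14.5) and KRT18 (13.6 to 14.9) were well above the floor at all doses, MSLN (7.29 to 7.86) and WT1 (6.89 to 7.73) were low, and EPCAM (5.45 to 5.72) was near the floor. The mesenchymal markers VIM (17 to 18.7), FN1 (18.4 to 21) and CDH2 (11 to 12.9) were high, and the leukocyte and macrophage markers PTPRC (4.86 to 5.91) and CD68 (5.45 to 5.86) were near the floor. Several differed with dose in their means: FN1 was at 20.7 at 10 µM against 18.8 in vehicle, CDH2 at 12.5 against 11.2, KRT7 at 13 against 11.9, PAX8 at 13.4 against 12.7, VIM at 17.2 against 18.1, and KRT8 at 13.3 against 14.1. The endothelial markers CDH5 and PECAM1 set number 6 apart in vehicle, with 12.9 for CDH5 against 10.9 and 10.8 in numbers 8 and 11, and 7.38 for PECAM1 against 5.57 and 5.69. At 10 µM their libraries lay at 11.9 to 12.1 and at 6.27 to 6.64. The part of these markers in the results was not tested. In bulk RNA, fewer cells of a kind and less RNA per cell cannot be told apart.

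Before the values, the promoters of 4 members are shown, because their elements are the sequences through which HSF1 and the cAMP-responsive factor CREB are known to bind DNA. The 250 bases before the start site were read from RefSeq (GRCh38.p14), 5′ to 3′ on the gene's strand. DNAJB6 and HSPD1 carried a heat shock element and moved in opposite directions at 10 µM, HSPA8 carried it and did not pass the test, and TRAP1 carried a cAMP response element. The elements are in capitals. In HSPD1 the capitals join 2 overlapping matches.
DNAJB6 (chr7:157336754-157337003, plus strand): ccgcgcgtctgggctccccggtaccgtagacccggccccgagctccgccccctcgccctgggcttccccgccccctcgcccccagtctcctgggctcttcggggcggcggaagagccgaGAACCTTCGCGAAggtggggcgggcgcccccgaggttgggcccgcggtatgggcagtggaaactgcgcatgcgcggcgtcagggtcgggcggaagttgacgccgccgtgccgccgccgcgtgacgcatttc
HSPD1 (chr2:197499841-197500090, minus strand): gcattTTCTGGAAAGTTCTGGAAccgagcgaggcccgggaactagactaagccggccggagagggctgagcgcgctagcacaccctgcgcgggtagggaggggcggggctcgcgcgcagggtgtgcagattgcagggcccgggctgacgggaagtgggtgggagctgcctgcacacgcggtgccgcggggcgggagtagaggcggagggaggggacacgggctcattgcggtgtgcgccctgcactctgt
HSPA8 (chr11:123062137-123062386, minus strand): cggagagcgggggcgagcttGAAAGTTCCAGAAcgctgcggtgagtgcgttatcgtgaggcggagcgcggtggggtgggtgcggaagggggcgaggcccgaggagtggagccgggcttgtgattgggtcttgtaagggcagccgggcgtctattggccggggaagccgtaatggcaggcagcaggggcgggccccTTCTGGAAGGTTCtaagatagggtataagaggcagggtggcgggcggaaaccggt
TRAP1 (chr16:3717525-3717774, minus strand): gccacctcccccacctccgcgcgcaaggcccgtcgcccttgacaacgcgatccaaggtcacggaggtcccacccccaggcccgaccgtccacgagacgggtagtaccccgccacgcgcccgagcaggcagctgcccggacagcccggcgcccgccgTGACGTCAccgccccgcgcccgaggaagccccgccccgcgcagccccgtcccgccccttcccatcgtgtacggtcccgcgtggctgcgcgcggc

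The heat shock element was searched as GAA NN TTC NN GAA (N is any base) on both strands in windows of 300 bases (250 before and 50 after the start site), which were given for 68 of the 75 members. It was present in 7 of these 68 genes (10.3%), namely DNAJA1, DNAJB6, HSP90AA1, HSP90AB1, HSPA6, HSPA8 and HSPD1. Counted by window, 7 of 92 member promoters held it (7.61%), against 172 of all 35116 promoters (0.490%). At 10 µM, DNAJB6 of these 7 genes was higher than in vehicle and HSPD1 was lower, beside 11.2% and 11.4% of all genes tested. The other 5 did not pass the main test. With the label number as a block, HSP90AA1 (limma adjusted p = 0.0461) and HSP90AB1 (0.0187) also passed as lower, beside 19.7% of all genes. The palindromic cAMP response element TGACGTCA was in 3 of 68 genes (4.41%), DNAJC27, HSP90AB1 and TRAP1. Counted by window, 4 of 92 member promoters held it (4.35%), against 649 of all 35116 promoters (1.85%). A match describes these letters in this window and does not show binding. HSPA1A, HSPA1B, DNAJB1, HSPH1 and BAG3, named above as heat-inducible targets, were not among the 7 genes with a heat shock element match. The search covered this exact pattern in the windows given, so a gene without a match is not shown to lack an element. HSPD1 and HSPE1 are read away from each other, and their RefSeq start sites lie 105 or 539 bases apart, depending on the HSPD1 promoter.

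At 10 µM against vehicle, 9 of 72 members were higher (12.5%) and 7 were lower (9.72%) at a limma adjusted p under 0.05, where 11.2% of all 17767 genes tested were higher and 11.4% lower. The share of members called was therefore near the background in both directions. With the label number as a block, 16 members were higher and 18 lower (22.2% and 25.0%), against 18.7% and 19.7% of all genes. At 5 µM, 6 members were higher (8.33%) and 4 lower (5.56%), beside 7.67% and 7.44% of all genes, and the block gave 10 and 11, beside 15.3% of all genes in each direction. At 1 µM, DNAJB6 was the 1 member called higher, and none was called lower (9 members had an unadjusted p under 0.05 in limma, and voom on recovered counts also called 1 and 0). The background at 1 µM was 1.18% higher and 0.613% lower, and the block called 5 and 2 members beside 6.76% and 5.26% of all genes. The members had a median difference of 0.00 at both lower doses and of -0.02 at the highest, and the median over all genes tested was 0.00 at each dose. Member differences stayed within -0.47 to 0.33 at 1 µM, -0.57 to 0.57 at 5 µM and -0.63 to 0.58 at 10 µM. The counts moved with single libraries. At 10 µM, leaving out 1 library gave 4 to 9 members higher and 4 to 10 lower, with 4 higher without 1 µM library 8 or 10 µM library 8, 5 higher without 10 µM library 11, and 4 lower without vehicle library 8. Those fits called 1786, 1613 and 1550 of all genes higher, in that order, and 1419 lower, against 1982 and 2033 with all libraries. At 5 µM, 3 were higher without 5 µM library 8 or 11, and the lower count was 7 without vehicle library 6, 2 without vehicle library 8 or 5 µM library 8 or 11, and 1 without vehicle library 11 or 5 µM library 6. Over all genes the higher count in these fits was 979 and 914, against 1362 with all libraries. The lower count over all genes was 1552, then 799, 849 and 968, then 744 and 823, against 1322. Leaving out a whole label number moved the counts of members and of all genes together. At 10 µM, 12 members were higher and 14 lower without number 6, beside 16.6% and 17.6% of all genes. Without number 11, 1 member was higher and 1 lower, beside 2.7% and 2.79% of all genes. Without number 8, 1 was higher and 0 were lower (6 lower at an unadjusted p under 0.05 in limma), beside 1.97% and 1.42% of all genes. At 10 µM the calls of DNAJB6, DNAJB12, DNAJC1, DNAJC16, HSPD1, HSPE1, CCT8 and DNAJC9 held in all 12 fits without a single library, and DNAJB6 also passed without any 1 label number.

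**Figure D1:**
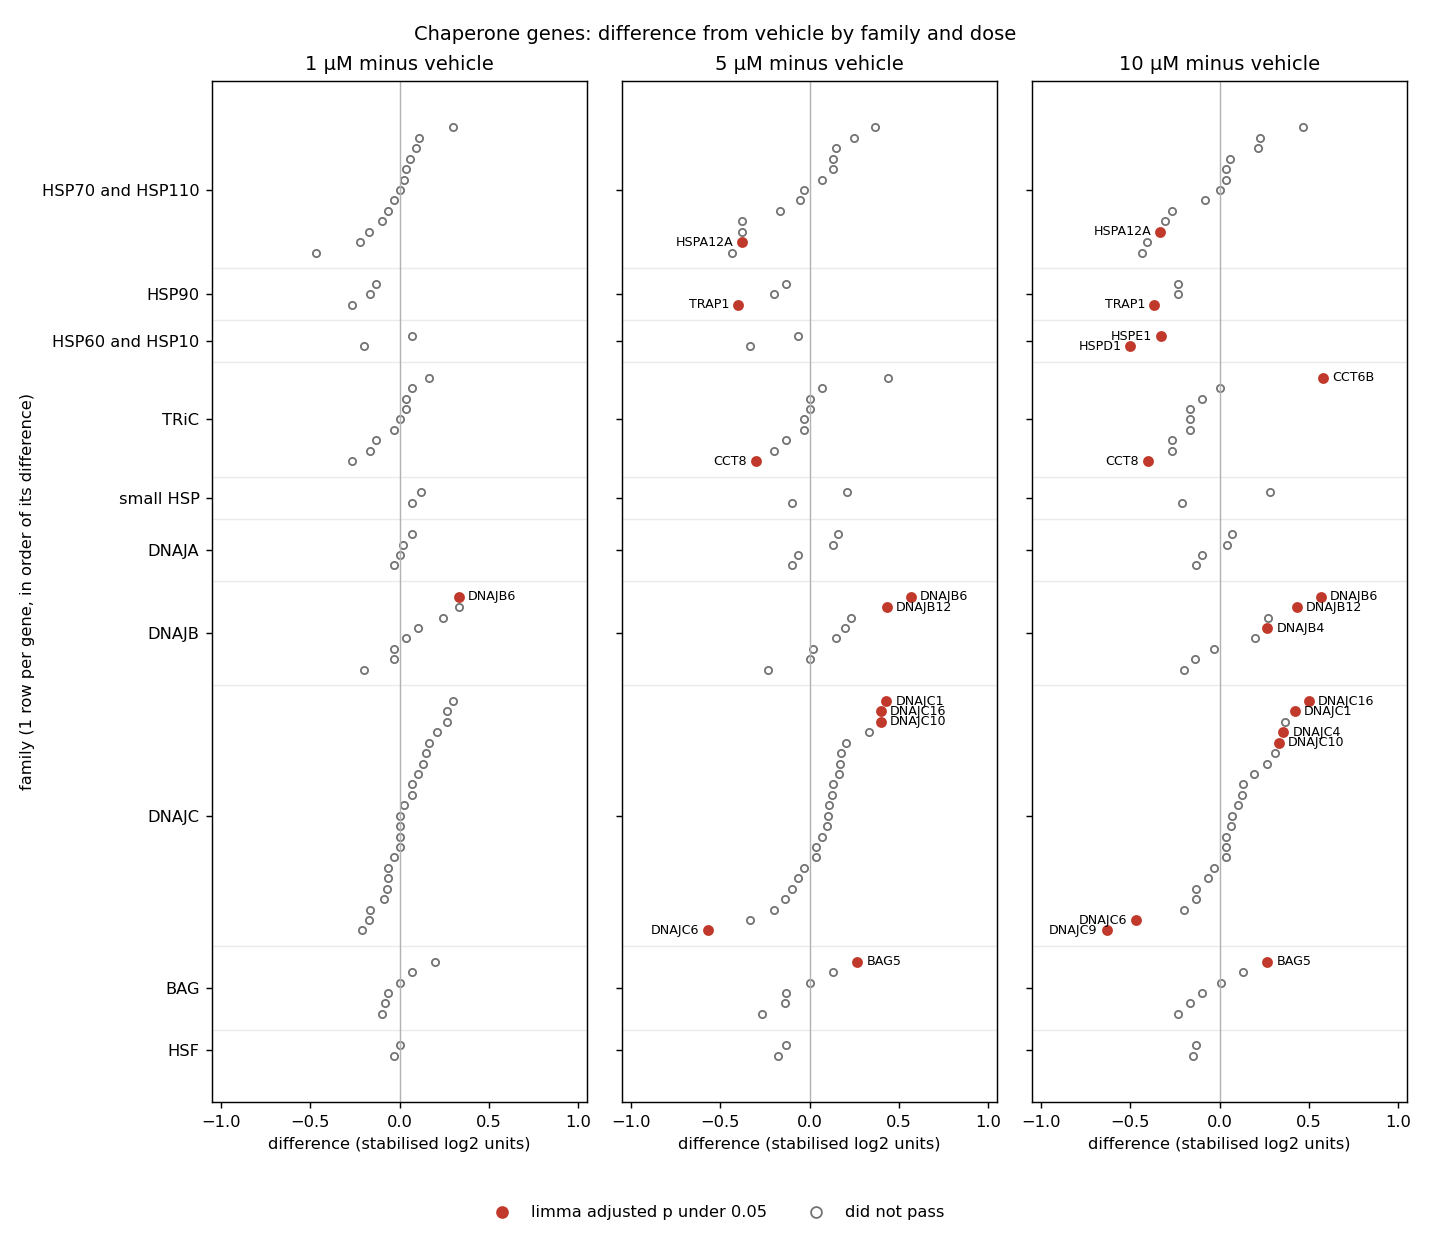
Difference from vehicle of each tested chaperone gene, in stabilised log2 units (horizontal axis), by family and dose, with 1 row per gene. Filled points passed a limma adjusted p under 0.05: 1 gene at 1 µM, 10 genes at 5 µM (6 higher, 4 lower) and 16 genes at 10 µM (9 higher, 7 lower), with both HSP60 and HSP10 genes left of 0 at 10 µM.

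Levels differed between members by several orders of magnitude. Per kilobase of exon, the cytosolic HSP90 gene HSP90AB1 and the constitutive HSP70 gene HSPA8 stood far above the rest, with 26451 and 25249 recovered normalised counts in vehicle. HSP90AB1 had 24115 counts per kilobase at 1 µM, 23025 at 5 µM and 22499 at 10 µM, whereas HSPA8 had 25812, 27665 and 25812 at the same doses. The next was HSPD1 with 8471 in vehicle, and then CCT4 with 7289 and HSP90AA1 with 6403. The testis-type TRiC subunit CCT6B, HSPA2, HSPB8 and the 3 untested genes were lowest, with 6.28 counts per kilobase for CCT6B in vehicle and less for the others. In vehicle the libraries of HSP90AB1 and HSPA8 overlapped on this scale, as did those of CCT4 and HSP90AA1. HSPD1 lay clear of HSPA8, but the gap to CCT4 was under 1 rounding step, so the order of these 2 cannot be read library by library. At 10 µM all HSPA8 libraries lay above those of HSP90AB1, by as little as about 1 rounding step.

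**Figure D2:**
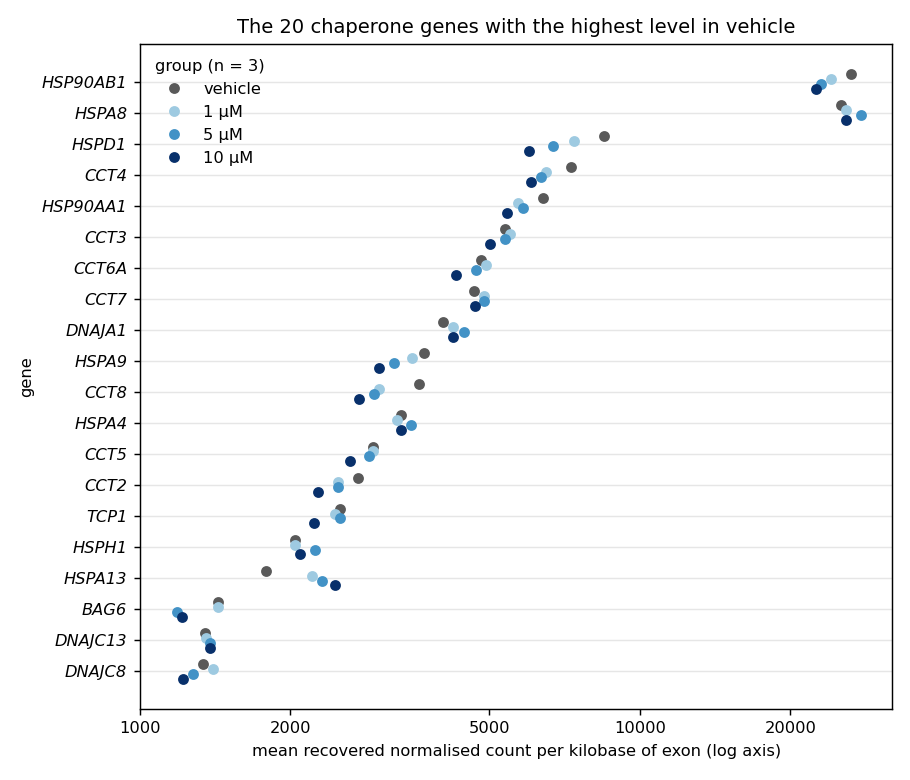
Mean recovered normalised count per kilobase of exon (log axis) for the 20 chaperone genes with the highest level in vehicle, with 1 point per group (n = 3 libraries each). HSP90AB1 and HSPA8 lie far to the right of the other genes in every group, and HSPD1 stands at 6014 at 10 µM against 8471 in vehicle.

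Both genes of the mitochondrial chaperonin were lower at 10 µM, beside 11.4% of all genes. HSPD1 (ENSG00000144381, chromosome 2, 197486581 to 197516737, minus strand, GRCh38), the HSP60 chamber, was at 15, 15.2 and 15.2 in vehicle libraries 6, 8 and 11, at 14.8, 15 and 15 at 1 µM, at 14.7, 14.9 and 14.8 at 5 µM, and at 14.4, 14.7 and 14.8 at 10 µM. The 10 µM and 5 µM libraries all lay under the lowest vehicle library, and the 1 µM libraries overlapped with vehicle. HSPD1 fell by 0.50 ± 0.12 at 10 µM (difference ± SE, limma adjusted p = 0.00963), in 3 of 3 label numbers, and its recovered count was 0.710 of that in vehicle. At 5 µM the difference was -0.33 (adjusted p = 0.0763), which passed with the block (0.00213), and at 1 µM it was -0.20 (0.446).

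HSPE1 (ENSG00000115541, chromosome 2, 197499994 to 197503457, plus strand), the HSP10 lid, was listed at 10.2 in each vehicle library, at 10.4, 10.2 and 10.2 at 1 µM, at 10.2, 10.1 and 10.1 at 5 µM, and at 9.81, 10 and 9.80 at 10 µM. The 10 µM libraries alone lay clear of vehicle. HSPE1 fell by 0.33 ± 0.08 at 10 µM (limma adjusted p = 0.0136), in 3 of 3 label numbers, to 0.787 of the vehicle count. HSPE1 lies wholly inside the annotated span of HSPD1 on the opposite strand (3464 bases), and the strand setting of the counting was not given in the sources used here, so reads of the pair may not be separated.

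TRAP1 (ENSG00000126602, chromosome 16, 3651639 to 3717597, minus strand), the mitochondrial HSP90, was at 11.6, 11.9 and 11.9 in vehicle, at 11.5, 11.6 and 11.5 at 1 µM, at 11.4 in each library at 5 µM, and at 11.2, 11.6 and 11.5 at 10 µM. The 5 µM libraries lay under all vehicle libraries, and the 10 µM libraries overlapped with vehicle library 6. TRAP1 fell by 0.40 ± 0.11 at 5 µM (limma adjusted p = 0.0282) and by 0.37 at 10 µM (0.03), and its difference of -0.27 at 1 µM passed with the block (adjusted p = 0.0459, against 0.256 without). The 10 µM call was lost without vehicle library 8 (adjusted p = 0.11), vehicle library 11 (0.106) or 10 µM library 6 (0.103). The 5 µM call was lost without vehicle library 8 or 11 or any 1 of the 5 µM libraries (adjusted p from 0.0705 to 0.108). TRAP1 shares 28505 bases with DNASE1 on the opposite strand.

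HSPA9, the mitochondrial HSP70 (mortalin), was at 14.2, 15.1 and 15.2 in vehicle, at 14.2, 15 and 15.1 at 1 µM, at 14.2, 14.9 and 14.9 at 5 µM, and at 14.1, 14.7 and 14.9 at 10 µM. Libraries numbered 6 were lower than the others at every dose, and that gap was wider than any difference between doses. The difference at 10 µM was -0.27 ± 0.33 (limma adjusted p = 0.604), and with the block it passed (0.0101). Of 16 mitochondrial folding, import and quality control partners, PMPCB, a subunit of the peptidase that trims imported proteins, was lower at 10 µM (-0.37, adjusted p = 0.0105). The other 15 did not pass without the block, and the median difference of the list was -0.05. The share called was thus 0% higher and 6.25% lower, beside 11.2% and 11.4% of all genes. The block gave 1 higher (6.25%) and 2 lower (12.5%), beside 18.7% and 19.7% of all genes. It added YME1L1 (0.17, limma adjusted p = 0.0358) and HSPBAP1 (-0.42, adjusted p = 4.94e-04). HSPBAP1 stood in the list but is named as a partner of HSPB1, and it is not an established mitochondrial factor.

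**Figure D3:**
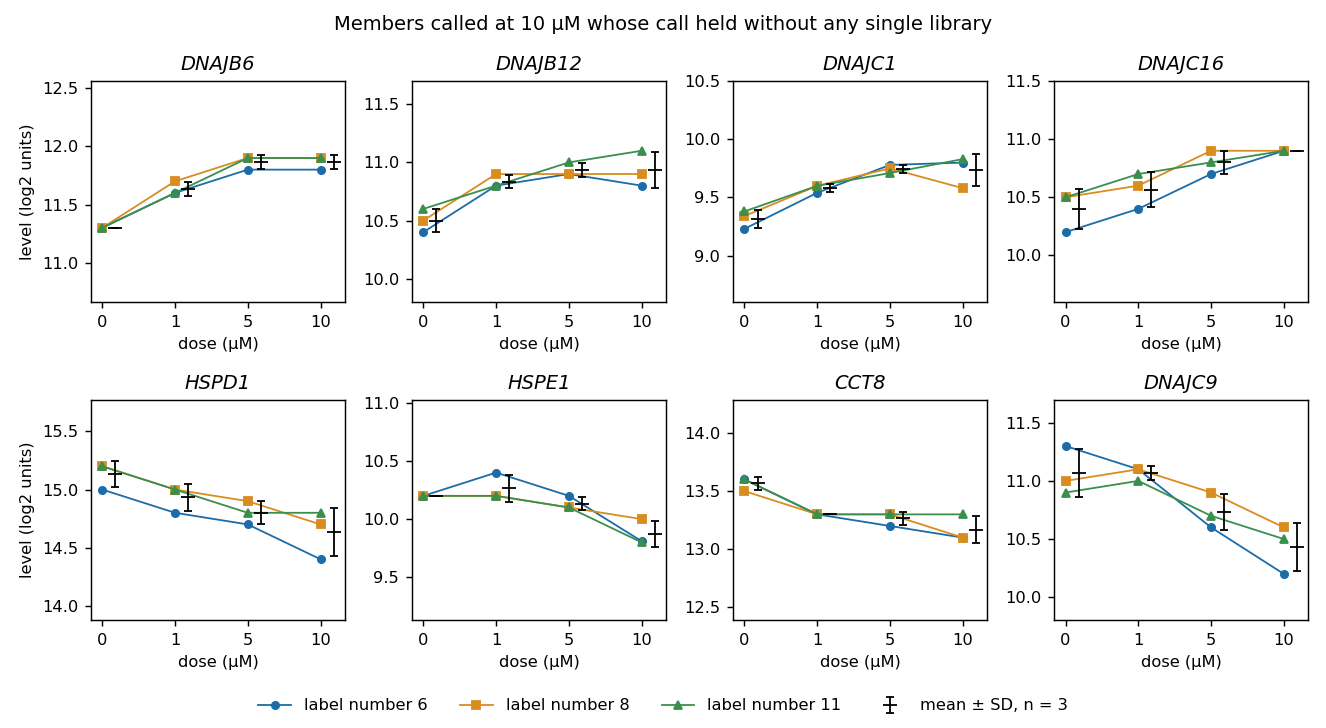
Stabilised log2 level (vertical axis, a span of 1.9 units in every panel) against dose for the 8 members whose 10 µM call held without any single library. Coloured points are the libraries with label numbers 6, 8 and 11, and black marks show mean ± SD (n = 3). The upper 4 genes were higher and the lower 4 were lower at 10 µM than in vehicle.

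The heat-inducible HSP70 genes did not pass the test at any dose. HSPA1A was at 9.52, 10 and 9.79 in vehicle, at 9.65, 10.1 and 9.88 at 1 µM, at 9.83, 10.1 and 9.83 at 5 µM, and at 9.79, 10.3 and 9.86 at 10 µM. HSPA1B was at 9.68, 10 and 9.73 in vehicle and at 10.1, 10.2 and 9.79 at 10 µM. The groups overlapped for both genes, which are near-identical copies whose reads could be split between them. Their differences at 10 µM were 0.21 ± 0.17 (95% interval -0.15 to 0.58, limma adjusted p = 0.397) and 0.23 (interval -0.06 to 0.51, adjusted p = 0.244). Both passed with the label number as a block (0.0397 and 0.034), and HSPA1B did so at 5 µM too (0.0284, difference 0.25). HSPA6, a strictly heat-inducible HSP70, was low at 6.30, 6.43 and 6.30 in vehicle and at 6.02, 6.01 and 6.09 at 10 µM, with a difference of -0.30 (adjusted p = 0.119).

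HSPA8, HSPH1 and HSPA4 differed by at most 0.03 at 10 µM. HSPA8 was at 16.8, 17 and 16.9 in vehicle, at 16.9, 17 and 16.9 at 1 µM, at 17, 17.1 and 17 at 5 µM, and at 16.9, 16.9 and 17 at 10 µM. Its difference at 10 µM was 0.03 ± 0.10 (95% interval -0.19 to 0.26, limma adjusted p = 0.851). HSPH1, an HSP110 exchange factor that is also heat-inducible, differed by 0.03 ± 0.11 (interval -0.20 to 0.26, adjusted p = 0.854). HSPA4, another HSP110 gene, had a difference of 0.00 ± 0.12.

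Of the 13 HSP70 and HSP110 genes, 0% were higher and 7.69% lower at 10 µM, beside 11.2% and 11.4% of all genes. With the block 3 were higher and 3 lower (23.1% each), beside 18.7% and 19.7% of all genes. HSPA12A (ENSG00000165868, chromosome 10, 116671192 to 116850236, minus strand), a distant HSP70 relative, was the 1 member of this family called without the block. It was at 8.34, 8.63 and 8.31 in vehicle, at 8.25, 8.23 and 8.29 at 1 µM, at 8.07, 8.10 and 7.98 at 5 µM, and at 8.21, 8.07 and 8 at 10 µM, and no treated library reached the lowest vehicle library. HSPA12A fell by 0.38 at 5 µM (limma adjusted p = 0.0315) and by 0.33 ± 0.10 at 10 µM (0.0393). The 10 µM call was lost without vehicle library 8, 1 µM library 8 or 11, 5 µM library 8, or 10 µM library 8 or 11 (adjusted p from 0.0546 to 0.158), and the 5 µM call without vehicle library 8 or any 1 of the 5 µM libraries (0.064 to 0.128).

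Some HSP70 genes outside the named set were looked at after their values were seen. HSPA13, an HSP70 of the ER and microsomes, was at 12.6, 12.9 and 13.1 in vehicle, at 12.8, 13.3 and 13.4 at 1 µM, at 12.9, 13.4 and 13.4 at 5 µM, and at 13.2, 13.3 and 13.5 at 10 µM. Every treated library lay above the vehicle library of its number, and the 10 µM group above all vehicle libraries. Its difference at 10 µM was 0.47 (limma adjusted p = 0.0961), and with the block it passed at 1 µM (0.0241), 5 µM (0.00317) and 10 µM (4.53e-04). HSPA4L, an HSP110 gene, was split by label number: at 10 µM it differed from vehicle by 0.20 in number 6, by -0.70 in number 8 and by -0.80 in number 11, for a mean of -0.43 (0.306). HSPA2 passed as lower at 10 µM with the block only (-0.41, limma adjusted p = 0.032, against 0.0722 without). It lay near the floor, at 5.99, 5.76 and 6 in vehicle and 5.64, 5.39 and 5.50 at 10 µM. Mean recovered counts were 16.5 and 6.12. It met the filter through vehicle libraries 6 and 11, 1 µM library 6 and 5 µM library 11 alone. No 10 µM library met it, so this call carries little weight.

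The cytosolic HSP90 genes passed as lower only with the label number as a block. HSP90AA1, the inducible isoform, was at 15.2, 14.9 and 15 in vehicle, at 15, 14.8 and 14.8 at 1 µM, at 15, 14.9 and 14.8 at 5 µM, and at 14.7, 14.8 and 14.9 at 10 µM. The constitutive isoform HSP90AB1 was at 16.3, 16.2 and 16.3 in vehicle, at 16.2, 16.1 and 16.1 at 1 µM, at 16.1, 16.1 and 16 at 5 µM, and at 16, 16 and 16.1 at 10 µM. For HSP90AB1 the 10 µM libraries lay under all vehicle libraries, by as little as 1 rounding step, and for HSP90AA1 the highest 10 µM library equalled the lowest vehicle library. Differences at 10 µM were -0.23 ± 0.10 for HSP90AA1 (limma adjusted p = 0.133, with the block 0.0461) and -0.23 ± 0.09 for HSP90AB1 (0.0792, with the block 0.0187). At 5 µM the block also called HSP90AB1 (0.0459, difference -0.20).

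**Figure D4:**
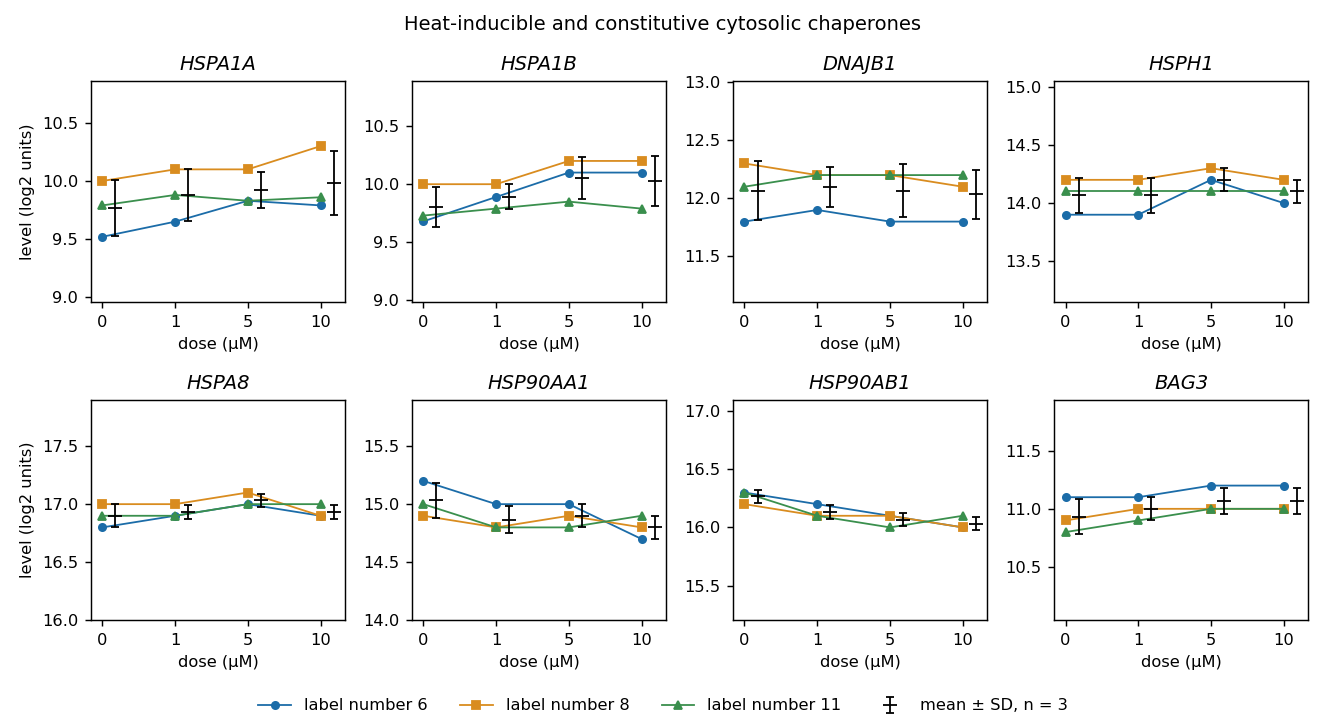
Stabilised log2 level (vertical axis, a span of 1.9 units in every panel) against dose for 8 heat-inducible or constitutive cytosolic chaperone genes, with points for the libraries numbered 6, 8 and 11 and black marks for mean ± SD (n = 3). None passed the test without the block at any dose, and differences at 10 µM ran from -0.23 for the HSP90 genes to 0.23 for HSPA1B.

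Among the cytosolic cochaperones, a list of 21 genes outside the DNAJ and BAG families, the median difference at 10 µM was -0.07. There 1 was higher (4.76%) and 3 were lower (14.3%), beside 11.2% and 11.4% of all genes. The block gave 1 and 5 (4.76% and 23.8%), beside 18.7% and 19.7% of all genes. It added the immunophilin FKBP4 (-0.37, limma adjusted p = 0.00191) and the mitochondrial import receptor TOMM70 (-0.17, adjusted p = 0.0391). FKBP5, an HSP90-bound immunophilin, fell by 0.99 ± 0.09 (limma adjusted p = 4.88e-05). PTGES3, the HSP90 cochaperone p23, fell by 0.40 (0.0062), and TOMM34, which links HSP70 and HSP90 at mitochondrial import, fell by 0.67 (0.00366). These 3 calls held without any single library. PIH1D1, a part of the R2TP complex, was higher by 0.23 (0.0315), and that call was lost without vehicle library 8 or 11 or 10 µM library 8 or 11 (0.0864 to 0.103). At 5 µM, FKBP5 and TOMM34 were lower. The TOMM34 call at 5 µM was lost without vehicle library 8 or 11, 1 µM library 8 or 11, 10 µM library 8 or any 1 of the 5 µM libraries (0.0581 to 0.158).

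In TRiC, CCT8 and CCT6B were called, in opposite directions. At 10 µM that was 1 of 9 genes higher and 1 lower (11.1% each), beside 11.2% and 11.4% of all genes. With the block 1 was higher and 5 were lower (11.1% and 55.6%), beside 18.7% and 19.7% of all genes. CCT8 (ENSG00000156261, chromosome 21, 29055805 to 29073797, minus strand), the theta subunit, was at 13.6, 13.5 and 13.6 in vehicle, at 13.3 in each 1 µM library, at 13.2, 13.3 and 13.3 at 5 µM, and at 13.1, 13.1 and 13.3 at 10 µM. All 9 treated libraries lay under the lowest vehicle library. CCT8 fell by 0.30 at 5 µM (limma adjusted p = 0.0178) and by 0.40 ± 0.07 at 10 µM (0.00266), to 0.758 of the vehicle count at the higher dose. The 1 µM difference of -0.27 passed with the block (0.0156, against 0.0961 without), and the 5 µM call was lost without vehicle library 11 (0.0679) or 5 µM library 6 (0.066).

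CCT6B (ENSG00000132141, chromosome 17, 34927859 to 34981078, minus strand), an alternative zeta subunit known from testis, was at 6.30, 6.05 and 6.26 in vehicle, at 6.46, 6.31 and 6.33 at 1 µM, at 6.99, 6.37 and 6.56 at 5 µM, and at 7.12, 6.71 and 6.52 at 10 µM. Its recovered normalised counts were 61.5 ± 22.9 at 10 µM and 27.2 ± 5.61 in vehicle (SD, n = 3), so it is a low gene, and no treated library overlapped with vehicle. The difference was 0.58 ± 0.18 at 10 µM (limma adjusted p = 0.0365) and 0.44 at 5 µM (0.129, with the block 0.0203). The call was lost without vehicle library 8 or 11, 1 µM library 8 or 11, or 10 µM library 6 or 8 (0.0508 to 0.135). CCT6B overlaps ZNF830 and LIG3 on the opposite strand.

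The other 7 TRiC subunits did not pass at 10 µM. Their differences were -0.27 for CCT2 (limma adjusted p = 0.0738) and for CCT4 (0.059), -0.17 for TCP1 (0.12), CCT6A (0.145) and CCT5 (0.345), -0.10 for CCT3 (0.359) and 0.00 for CCT7. With the block CCT2 (0.00337), CCT4 (0.00456), TCP1 (0.0404) and CCT6A (0.0438) also passed as lower, and CCT4 did so at 5 µM (0.027). CCT7 stayed at 13.8, 14.1 and 14.2 at 10 µM, against 13.9, 14.1 and 14.1 in vehicle (95% interval of the difference -0.24 to 0.24). The subunits thus did not all move by the same measured amount, and differences between subunits were not tested.

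Prefoldin, which hands clients to TRiC, and the tubulin folding factors formed a list of 18 genes, with a median difference of -0.15 at 10 µM. At that dose 1 was higher (5.56%) and 3 were lower (16.7%), beside 11.2% and 11.4% of all genes. With the block the counts were 1 and 7 (5.56% and 38.9%), beside 18.7% and 19.7% of all genes. PDCL3, a phosducin-like TRiC partner, fell by 0.47 ± 0.09 (limma adjusted p = 0.00346), the prefoldin subunit PFDN4 fell by 0.43 ± 0.07 (0.00131), and the tubulin cofactor TBCA fell by 0.40 ± 0.08 (0.00398). TXNDC9, another phosducin-like protein, was higher by 0.27 ± 0.06 (0.00783). These 4 calls held without any single library.

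Of the small heat shock proteins, HSPB1 (HSP27) was at 10.4, 10.1 and 10.2 in vehicle, at 10.3, 10.5 and 10.1 at 1 µM, at 10.1, 10 and 10.3 at 5 µM, and at 9.76, 10.2 and 10.1 at 10 µM. The groups overlapped, and the difference at 10 µM was -0.21 (95% interval -0.52 to 0.09, limma adjusted p = 0.304). HSPB8, which works with BAG3 in chaperone-assisted autophagy, lay near the floor outside the libraries numbered 6, with 6.11, 5.50 and 5.45 at 10 µM against 6.08, 4.86 and 5.28 in vehicle (difference 0.28, adjusted p = 0.676).

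The 1 member called at all 3 doses was DNAJB6 (ENSG00000105993, chromosome 7, 157335381 to 157417439, plus strand), a J-domain protein known for suppressing aggregation of polyglutamine proteins. DNAJB6 was at 11.3 in each vehicle library, at 11.6, 11.7 and 11.6 at 1 µM, at 11.8, 11.9 and 11.9 at 5 µM, and at 11.8, 11.9 and 11.9 at 10 µM. All treated libraries lay above vehicle, and the 5 and 10 µM groups had the same values. The difference was 0.33 ± 0.06 at 1 µM (limma adjusted p = 0.0225), 0.57 ± 0.06 at 5 µM (2.28e-04) and 0.57 ± 0.06 at 10 µM (1.31e-04), with recovered counts 1.27, 1.49 and 1.49 times those in vehicle. The 1 µM call was lost without vehicle library 8 or 11 or any 1 of the 1 µM libraries (0.0517 to 0.115).

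DNAJB12 (ENSG00000148719, chromosome 10, 72332830 to 72355230, minus strand), a J-domain protein of the ER membrane that takes part in ER-associated degradation, was at 10.4, 10.5 and 10.6 in vehicle, at 10.8, 10.9 and 10.8 at 1 µM, at 10.9, 10.9 and 11 at 5 µM, and at 10.8, 10.9 and 11.1 at 10 µM. No treated library overlapped with vehicle. It was higher by 0.43 at 5 µM (limma adjusted p = 0.0067) and by 0.43 ± 0.09 at 10 µM (0.00438), or 1.37 times the vehicle count, and its difference of 0.33 at 1 µM passed with the block (0.00874, against 0.0798 without).

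DNAJB1 (HSP40), the heat-inducible partner of HSP70, did not pass at any dose. It was at 11.8, 12.3 and 12.1 in vehicle, at 11.9, 12.2 and 12.2 at 1 µM, at 11.8, 12.2 and 12.2 at 5 µM, and at 11.8, 12.1 and 12.2 at 10 µM, with a difference of -0.03 ± 0.16 (95% interval -0.38 to 0.31, limma adjusted p = 0.905). DNAJA1, the main constitutive cytosolic partner, differed by 0.07 (interval -0.14 to 0.27, adjusted p = 0.653), and the 4 DNAJA genes lay between -0.13 and 0.07 at 10 µM. With the block, DNAJB5 (0.27, limma adjusted p = 0.0395, against 0.305 without) was higher and DNAJB2 (-0.20, adjusted p = 0.0315, against 0.0867 without) lower at 10 µM, and DNAJB2 also at 5 µM (-0.23, adjusted p = 0.019). DNAJB4, a gene named here after its values were seen, was at 10.9 in each 10 µM library against 10.5, 10.7 and 10.7 in vehicle. It was higher by 0.27 ± 0.09 at 10 µM (0.0469), a call that held without 1 µM library 6 or 5 µM library 11 and was lost without any 1 of the other 10 libraries (0.0522 to 0.124). DNAJB4 shares 38423 bases of its annotated span with GIPC2 on the same strand.

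Of the 23 DNAJC genes tested, 4 were higher (17.4%) and 2 lower (8.70%) at 10 µM, beside 11.2% and 11.4% of all genes. With the block 7 were higher (30.4%) and 3 lower (13%), beside 18.7% and 19.7% of all genes. DNAJC1 (ENSG00000136770, chromosome 10, 21756537 to 22003769, minus strand), an ER membrane J-domain protein, was at 9.23, 9.34 and 9.38 in vehicle, at 9.54, 9.60 and 9.60 at 1 µM, at 9.78, 9.75 and 9.71 at 5 µM, and at 9.80, 9.58 and 9.83 at 10 µM. Every treated library lay above the highest vehicle library. DNAJC1 was higher by 0.43 at 5 µM (limma adjusted p = 0.00537) and by 0.42 ± 0.08 at 10 µM (0.00404), and its difference of 0.26 at 1 µM passed with the block (0.0494, against 0.14 without).

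DNAJC16 (ENSG00000116138, chromosome 1, 15526813 to 15592379, plus strand), also of the ER, was at 10.2, 10.5 and 10.5 in vehicle, at 10.4, 10.6 and 10.7 at 1 µM, at 10.7, 10.9 and 10.8 at 5 µM, and at 10.9 in each 10 µM library. The 5 and 10 µM groups lay above vehicle, and the 1 µM group overlapped with it. DNAJC16 was higher by 0.40 at 5 µM (limma adjusted p = 0.0216) and by 0.50 ± 0.10 at 10 µM (0.00465), or 1.43 times the vehicle count. The 5 µM call was lost without 5 µM library 8 (0.0821) or 11 (0.0583), and DNAJC16 shares 12758 bases with AGMAT on the opposite strand.

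DNAJC10 (ENSG00000077232, chromosome 2, 182716041 to 182794464, plus strand), the ER disulfide reductase ERdj5, was at 12.7, 13.1 and 13.1 in vehicle, at 12.9, 13.1 and 13.2 at 1 µM, at 13.3, 13.4 and 13.4 at 5 µM, and at 13.3 in each 10 µM library. It was higher by 0.40 at 5 µM (limma adjusted p = 0.0312) and by 0.33 ± 0.11 at 10 µM (0.0495). Both doses lay clear of vehicle, yet the 10 µM call was lost without any 1 of the 5 or 10 µM libraries, vehicle library 6 or 1 µM library 8 or 11 (0.0534 to 0.124). The 5 µM call was lost without vehicle library 6 or any 1 of the 5 µM libraries (0.0558 to 0.0911).

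DNAJC4 (ENSG00000110011, chromosome 11, 64230278 to 64234286, plus strand) was at 8.67, 9.03 and 9.02 in vehicle, at 9.08, 9.04 and 9.23 at 1 µM, at 8.95, 9.07 and 9.21 at 5 µM, and at 9.20, 9.29 and 9.30 at 10 µM. It was higher by 0.36 ± 0.11 at 10 µM (limma adjusted p = 0.04), with groups that did not overlap at that dose. The call was lost without vehicle library 6, 1 µM library 8, 5 µM library 8 or any 1 of the 10 µM libraries (0.0538 to 0.105). DNAJC4 overlaps an antisense gene over 4009 bases.

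DNAJC9 (ENSG00000213551, chromosome 10, 73183362 to 73248862, minus strand), a nuclear J-domain protein known as a histone chaperone, had the largest fall of any tested member at 10 µM. It was at 11.3, 11 and 10.9 in vehicle, at 11.1, 11.1 and 11 at 1 µM, at 10.6, 10.9 and 10.7 at 5 µM, and at 10.2, 10.6 and 10.5 at 10 µM. The 10 µM libraries lay under all vehicle libraries, and the 5 µM group touched vehicle at 10.9. DNAJC9 fell by 0.63 ± 0.13 at 10 µM (limma adjusted p = 0.00427), to 0.635 of the vehicle count, and its 5 µM difference of -0.33 passed with the block (0.0459, against 0.102 without).

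The size of the fall in DNAJC9 differed between label numbers, with -1.10 in number 6 and -0.40 in both number 8 and number 11. The median of a list of 12 mitosis genes fell in number 6 alone. At 10 µM against vehicle it was -1.98 within number 6, against 0.30 within number 8 and 0.38 within number 11, where DNAJC9 was lower. None of the 12 was called at 10 µM, with or without the block, and none had an unadjusted p under 0.05 in limma (range of differences -0.77 to 0.12). At 10 µM against 1 µM the list had a median difference of -0.82, with -1.75 within number 6, -0.46 within number 8 and -0.39 within number 11. In that comparison limma called none of the 12 without the block (1 at an unadjusted p under 0.05) and 3 lower with it, AURKB, CDK1 and TPX2. The part of cell division in either DNAJC9 result was not tested. DNAJC9 also shares 61143 bases with FAM149B1 and 1503 bases with DNAJC9-AS1 on the opposite strand.

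DNAJC6 (ENSG00000116675, chromosome 1, 65248219 to 65415869, plus strand), the neuronal auxilin that strips clathrin from vesicles, was low in these cells. It was at 7.09, 7.04 and 7.13 in vehicle, at 6.83, 7.06 and 6.86 at 1 µM, at 6.73, 6.62 and 6.20 at 5 µM, and at 6.70, 6.66 and 6.50 at 10 µM, and the 5 and 10 µM libraries all lay under vehicle. DNAJC6 fell by 0.57 at 5 µM (limma adjusted p = 0.0168) and by 0.47 ± 0.14 at 10 µM (0.0303). The 10 µM call was lost without any 1 of the vehicle libraries or 10 µM library 8 or 11 (0.0536 to 0.0963), and the 5 µM call without vehicle library 11 (0.0595) or 5 µM library 11 (0.0503). DNAJC5, the cysteine string protein of secretory vesicles, was looked at after its values were seen. Its differences were 0.30, 0.33 and 0.27 at 1, 5 and 10 µM, and each passed with the block only (0.0277, 0.00684 and 0.0177). The block also called DNAJC17 (0.37, limma adjusted p = 0.00527) and DNAJC30 (0.31, adjusted p = 0.0184) as higher at 10 µM, and DNAJC21 as lower at 5 µM (-0.20, adjusted p = 0.0204) and 10 µM (-0.20, adjusted p = 0.0161), none of which passed without it.

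Of 6 BAG genes, 1 was higher (16.7%) and 0 were lower at 10 µM, beside 11.2% and 11.4% of all genes. The block gave 1 and 1 (16.7% each), beside 18.7% and 19.7% of all genes. BAG5, named here after its values were seen, was the 1 BAG gene called without the block. It was at 11.9, 11.7 and 11.7 in vehicle, at 11.9, 12 and 12 at 1 µM, at 11.9, 12.1 and 12.1 at 5 µM, and at 12, 12 and 12.1 at 10 µM, where it lay 1 rounding step above vehicle or more. BAG5 was higher by 0.27 at 5 µM (limma adjusted p = 0.0469) and by 0.27 ± 0.08 at 10 µM (0.0349). The 10 µM call was lost without vehicle library 8 or 11, 1 µM library 8 or any 1 of the 10 µM libraries (0.051 to 0.122), and the 5 µM call held only without vehicle library 6 or 5 µM library 6 (0.0504 to 0.157 without each of the others). BAG5 shares 5334 bases with an antisense gene on the opposite strand. BAG6, which guides tail-anchored proteins, was lower with the block at 5 µM (-0.27, adjusted p = 0.0135, against 0.0891 without) and 10 µM (-0.23, adjusted p = 0.0208, against 0.11 without).

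BAG3, the stress-induced cochaperone of selective autophagy, was at 11.1, 10.9 and 10.8 in vehicle, at 11.1, 11 and 10.9 at 1 µM, at 11.2, 11 and 11 at 5 µM, and at 11.2, 11 and 11 at 10 µM. Its difference at 10 µM was 0.13 (95% interval -0.08 to 0.35, limma adjusted p = 0.371). HSF1, the main heat shock factor, was at 11.8, 12.2 and 12.2 at 10 µM against 12, 12.2 and 12.4 in vehicle, a difference of -0.13 (interval -0.46 to 0.19, adjusted p = 0.566). HSF2, its relative with roles in development and stress, was at 9.48, 9.65 and 9.79 at 10 µM against 9.72, 9.76 and 9.88 in vehicle, a difference of -0.15 (interval -0.35 to 0.06, adjusted p = 0.294).

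A further 15 genes known as HSF1 targets but outside the families were counted beside them. At 10 µM 3 were higher (20%) and 1 was lower (6.67%), beside 11.2% and 11.4% of all genes. With the block 5 were higher (33.3%) and 4 lower (26.7%), beside 18.7% and 19.7% of all genes. It added UBB and DEDD2 as higher, and CRYAB, FKBP4 and PPP1R15A as lower (limma adjusted p from 8.68e-07 to 0.046). SERPINH1, the collagen chaperone HSP47, was higher by 0.60 ± 0.14 (limma adjusted p = 0.0112), and RGS2, a regulator of G protein signalling, by 1.38 ± 0.33 (0.0118). SQSTM1, an autophagy receptor, was higher by 0.50 ± 0.13 (0.0179), a call lost without 10 µM library 6 (0.0522) or 8 (0.0534). IER5, an immediate early gene that modifies HSF1 activity, fell by 0.73 ± 0.11 (6.35e-04). RGS2 is also known as a cAMP-induced gene.

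A list of 10 ER chaperones outside the members, among them the 4 that were left out by name, had 7 genes higher and none lower at 10 µM in limma, beside 11.2% and 11.4% of all genes. The 8 with an unadjusted p under 0.05 were all higher, and the median difference was 0.43. The block called 8 and 0, beside 18.7% and 19.7% of all genes. The other 3 did not pass: HSPA5 (BiP) differed by -0.10 (limma adjusted p = 0.717), SDF2L1 by 0.12 (0.483) and HYOU1 by 0.60 (0.114, with the block 9.09e-04). DNAJC3 was higher by 0.43 (7.1e-04), DNAJB11 by 0.43 (0.00114) and HSP90B1 by 0.47 (0.0173), the last lost without vehicle library 8 or 11 or 10 µM library 6 (0.0622 to 0.0769).

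Between the highest and the lowest dose, 10 µM against 1 µM, 1 member was higher and 2 were lower, beside 2.17% and 2.54% of all genes tested. Without vehicle library 6, 3 were higher, beside 617 of 17620 genes. With the block 6 and 6 were called, beside 9.46% and 11.4% of all genes. DNAJC9 fell by 0.63 (limma adjusted p = 0.021) and HSPE1 by 0.40 (0.0232), whereas DNAJB4 was higher by 0.47 (0.0167). Each of these calls was lost without some of the libraries. DNAJC9 was lost without 10 µM library 6 or any 1 of the 1 µM libraries (0.0556 to 0.0899), HSPE1 without any 1 of the 1 µM libraries or 10 µM library 6 or 11 (0.054 to 0.0882) and DNAJB4 without 1 µM library 8 (0.0538) or 10 µM library 6 (0.0567). HSPD1 differed by -0.30 (0.162), which passed with the block (0.00751), and DNAJB6 by 0.23 (0.0576, with the block 0.0106). The other members that the block added were DNAJC16, DNAJC27, HSPA1L and CCT6B as higher, and BAG6, DNAJC8 and CCT6A as lower. The 10 µM comparisons with vehicle and with 1 µM share the 10 µM libraries, so their calls are not independent.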

How the data were processed

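RNA was measured in 12 libraries of HEYA8 cells by sequencing of total RNA after ribosomal depletion, per the labels' protocols. The deposited values are variance-stabilised log2 values made by the authors, rounded to 3 significant digits. Per the submitters' processing notes, the tools included DESeq2 and the build was GRCh38 (hg38). The aligner, counter, strand setting and annotation are not given in the sources used here. Of the 75 members, 33 overlap another gene of the table on the opposite strand, so their reads may not be separated. Libraries had been scaled to each other by the authors, so a change in total RNA is not visible, and a difference on this scale understates the fold of a low gene. The table held 4 entries that name no gene (reads without a feature, ambiguous, not aligned or not unique). They stayed out of every step, and their shares are not analysed here.

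Gene types, exon lengths and positions were matched from GENCODE 29 (GRCh38). Symbols were matched by Ensembl gene id from a separate list of gene names, and 21166 of 21207 genes had a symbol. The test took the 17767 genes that exceeded the floor by over 1 in 3 or more libraries. The main test was a limma 3.58.1 moderated linear model in R 4.3.3 with 4 dose groups and a variance trend, two-sided, with Benjamini-Hochberg adjustment over all genes tested and a threshold of 0.05. All adjusted p-values in the text come from limma, and they measure the spread between libraries of 1 cell line. The members, lists and tests were chosen with earlier results of these data known.

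Counts were recovered with a curve fitted to the steps that single reads leave among low values: 94.4% of 57682 low values matched a whole read within 0.005, against 25.8% with the depths assigned to the wrong libraries. From a value of 10 up (30.9% of values) recovered counts carry the rounding error, and an SD of 0 can arise from equal rounded values. Counts per kilobase are these counts divided by the union exon length. Libraries held 23.9 to 48.4 megareads on genes, and 3 libraries per group limit the precision.

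Deviations from the group mean correlated at 0.316 to 0.777 for all 18 pairs of libraries with the same label number, above the limit of 0.1. Other pairs ran from -0.711 to 0.569. The 2 ranges overlap and some other pairs also passed the limit, so this check alone does not establish that each number forms a pair set. The fit with the label number as a replicate block is given as an alternative for the counts of members and of each list, and beside each member whose call it changes against vehicle. Values were named with full statistics for 24 core members and for up to 6 members per direction and dose with the largest difference among those called with 1 sign in all 3 label numbers. Alternatives were 2 filters, 2 other scalings, no variance trend, the 2 groups compared alone, voom on recovered counts, and fits without each library or label number. Voom with the block and the block on numbers 8 and 11 alone were chosen after seeing the data. The fit was tested on simulated data with 200 changed genes.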

Additional observations from a re-analysis of the deposited data

How the results depend on the processing

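No named gene reversed its direction where a call was involved, in 6164 comparisons of 248 gene results with an alternative. Of the 62 such results that were called, the replicate block and voom with the block lost 0 (each added calls), the stricter filter 0, voom without the block 2, quantile scaling 2, a common median 5, no filter 4, no variance trend 6, and the fit of the 2 groups alone 27. Counts of chaperone genes called higher and lower at 1 µM (reported 1 and 0) were 5 and 2 with the replicate block, 5 and 3 with voom and the block, and 3 and 3 with the block on label numbers 8 and 11 alone. Of all 17767 genes the main fit called 210 and 109, the block 1201 and 934, and voom with the block 1276 and 1076. The block on numbers 8 and 11 alone called 1438 and 1160 of 17141 genes. At 1 µM the fit of the 2 groups alone called 0 higher (5 at an unadjusted p under 0.05 in limma), and quantile scaling 1 lower. The same fits called 29 of all genes higher and 136 lower, respectively. At 5 µM (6 and 4) the block gave 10 and 11, voom with the block 10 and 13, the block on numbers 8 and 11 alone 8 lower, and the 2 groups alone 3 higher and 0 lower (10 lower at an unadjusted p under 0.05 in limma). For all genes (1362 and 1322) the block gave 2712 and 2724, and voom with the block 2777 and 2845. The block on numbers 8 and 11 alone gave 2604 lower, and the 2 groups alone 840 and 761. At 10 µM (9 and 7) the block gave 16 and 18, voom with the block 15 and 19, the block on numbers 8 and 11 alone 14 lower, and the 2 groups alone 4 higher. For all genes (1982 and 2033) the block gave 3326 and 3498, and voom with the block 3339 and 3589. The block on numbers 8 and 11 alone gave 3218 lower, and the 2 groups alone 1276 higher. At 10 µM against 1 µM (1 and 2) the block gave 6 and 6, voom with the block 7 and 7, and the block on numbers 8 and 11 alone 3 and 4. For all genes (386 and 451) these fits gave 1681 and 2032, 1699 and 2109, and 1102 and 1493. The stricter filter, quantile scaling and a common median each gave 2 higher, and the 2 groups alone 1 lower. The counts over all genes were 378, 462 and 501 higher, in that order, and 151 lower. Across fits without 1 library or 1 label number, the counts higher and lower ranged from 0 to 3 and 0 to 2 at 1 µM, from 0 to 9 and 0 to 7 at 5 µM, from 1 to 12 and 0 to 14 at 10 µM, and from 0 to 3 and 0 to 3 at 10 µM against 1 µM. Leaving out number 6 lost 1 of the 62 calls, number 8 lost 59 and number 11 lost 56. The cause of the unequal losses was not tested. The median of all genes moved by less than 0.1 under each scaling. Low members such as CCT6B and DNAJC6 are limited by depth, and members above 10 by the rounding of the deposited values to steps of 0.1.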
